A study of Mus musculus with 8 samples.

Results

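Sertoli cell marker genes were followed through an RNA immunoprecipitation of tagged Dazl, a germ cell protein that binds RNA. The 10 genes were Sox9, Wt1, Gata1, Rhox5, Amh, Inhbb, Dhh, Fshr, Clu and Espn. They were chosen by name, as transcripts of somatic cells, and every probe whose gene name on the array equalled one of the 10 was used. The array carries 27962 gene names, of which 17580 were measured well enough to test, and all 10 markers were among these.

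RNA came from testes of male mice of mixed C57BL/6 and 129SV strain at postnatal day 14. All 4 groups came from animals expressing a Dazl-GFP-V5 fusion, and each group has 2 arrays. They are total RNA (input), RNA brought down by normal mouse IgG as a mock, and RNA brought down by anti-V5 or by anti-GFP. No group without the fusion is among the samples, and the labels do not name the promoter that drives it. The testes were dissociated and lysed, and precipitation was native, without UV crosslinking, so RNA that binds beads, antibody or protein after lysis is also recovered. The design text of the series names anti-PABP1 where the sample labels name anti-GFP; the sample labels were followed here. The description of input replicate 2 reads as a precipitate and that of V5 replicate 1 as total RNA, against their titles and antibody fields. The labels do not say whether the 2 replicates of a group came from separate animals, so a p-value here measures only how these samples differ from one another, and that spread may be technical.

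Sertoli cells are the somatic cells of the seminiferous tubule. They surround and nourish the germ cells, form the blood-testis barrier through junctions with one another, and respond to follicle-stimulating hormone and androgen. Around the second week after birth in the mouse they stop dividing and mature while the first germ cells are in meiosis. Dazl belongs to the germ line, where it binds the 3' untranslated regions of messenger RNAs and acts on their translation. Messenger RNAs of Sertoli cells are therefore used as transcripts that a germ cell protein would not meet in the intact tissue, although all RNAs and proteins share 1 solution once the tissue is lysed.

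The 10 markers were represented by 14 probes. Sox9 had 3 probes, Espn and Inhbb had 2 each, and the other 7 genes had 1 each. All 328 spot measurements of these probes over the 8 arrays were well above background, and 0 were saturated. The samples are labelled as germ cells, and all 10 Sertoli markers were nevertheless well above background on both input arrays, together with 43 of 45 further Sertoli genes on the array. Of the markers of other cell types, 8 of 9 Leydig, 8 of 8 peritubular myoid, 6 of 8 erythroid and 11 of 11 germ cell genes were also above background there. In bulk RNA, fewer cells of a type and less RNA per cell cannot be told apart. Between 57.2% and 62.2% of spots on each array were well above background. The 2 arrays of a group agreed closely across genes (Pearson's r from 0.9945 to 0.9973, across genes and not independent replicates), with the widest median difference, 0.159 log2, between the IgG arrays. Input and IgG arrays lay on slide 1, and V5 and GFP arrays on slide 2. In every comparison of V5 or GFP with IgG or input, slide and group therefore cannot be told apart.

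Levels are given as multiples of the 75th percentile of the same array's non-control spots. A probe's level can be set against itself on other arrays but not against another probe. Log2 fold changes, their standard errors (SE) and adjusted p-values come from limma fitted over all 8 arrays and all 17580 genes, with Benjamini-Hochberg adjustment, and "lower" or "higher" means an adjusted p under 0.05. Each group has only 2 arrays, and this number limits the precision.

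**Figure D1:**
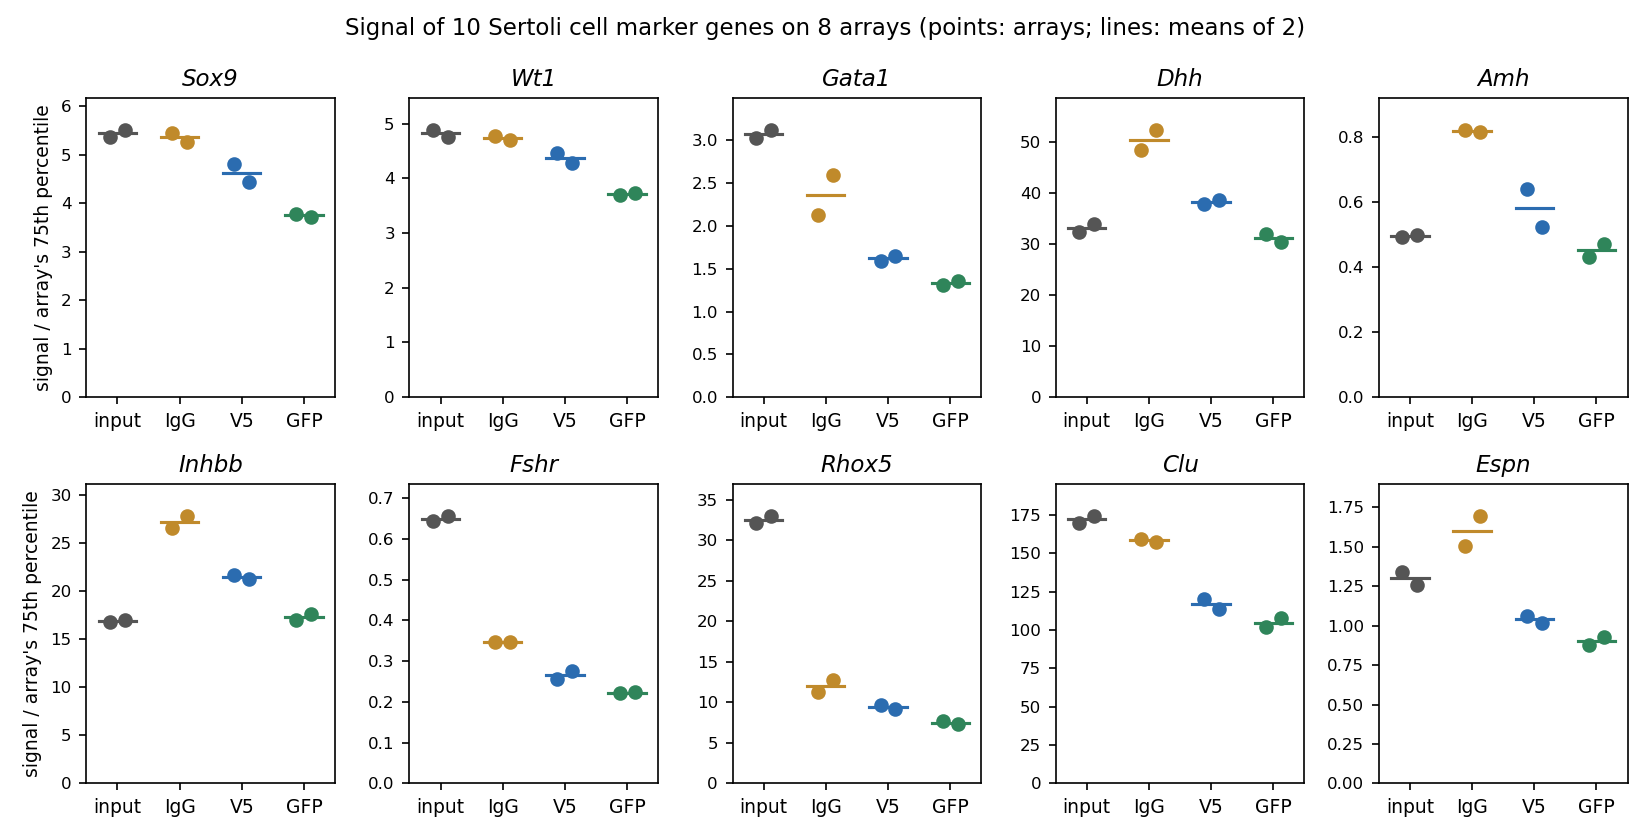
Each panel plots 1 Sertoli marker gene, with the signal of its probe divided by the array's 75th percentile (linear axis from 0) for the 2 arrays of input, IgG, V5 and GFP; points are arrays and lines are means of 2. In all 10 panels both V5 arrays lie below both IgG arrays and both GFP arrays lie below both V5 arrays, while the input arrays lie above IgG for some genes (Rhox5, Fshr, Gata1) and below it for others (Inhbb, Dhh, Amh, Espn).

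In the precipitates of tagged Dazl the Sertoli markers were lower than in the IgG mock. With V5, 9 of the 10 were lower, 0 were higher and 1 did not pass the test, with a median log2 fold change of -0.39. With GFP all 10 were lower and 0 were higher, with a median of -0.66. Lower calls were common in both comparisons: 40.4% of all genes were lower and 16.7% higher in V5 than in IgG, and 52.1% were lower and 21.6% higher in GFP than in IgG. The median over all genes was -0.21 for V5 and -0.33 for GFP, so that 9 of 10 markers lay below it with V5 and 10 of 10 with GFP. Both arrays of the precipitate lay below both IgG arrays for all 10 markers with either antibody, against 56.6% of all genes with V5 and 60.6% with GFP. The 2 comparisons share the IgG arrays.

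The position of 0 in these comparisons depended on the scaling. When arrays were scaled to the 7 spike-in control RNAs in place of the 75th percentile, every value over IgG rose by 0.36 with V5 and 0.47 with GFP, and the median of all genes moved to 0.16 and 0.15. Calls over all genes then split into 914 lower and 6250 higher with V5, where the 75th percentile gave 7095 and 2938, and into 2202 lower and 6844 higher with GFP, where it gave 9161 and 3804. Quantile normalization gave 5439 lower and 3557 higher with V5. Under spike-in scaling only Espn of the 10 was lower and Wt1 was higher with V5, and Espn, Amh and Gata1 were lower with GFP. Since this scaling moves every gene of a comparison by the same amount, it cannot change where a marker lies relative to all genes.

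The transcription factors of the set gave the smallest and some of the largest differences. Sox9, which directs the embryonic gonad towards the Sertoli cell fate, gave 5.37 and 5.51 times the 75th percentile on the input arrays, 5.44 and 5.27 with IgG, 4.80 and 4.44 with V5, and 3.78 and 3.72 with GFP. Input and IgG overlapped, and V5 and then GFP lay below them. Sox9 was 1.16-fold lower in V5 than in IgG (log2 fold change -0.21, SE 0.068, adjusted p = 0.035) and 1.43-fold lower in GFP (-0.51, SE 0.068, adjusted p = 0.00084). The call with V5 was lost when any 1 of the 8 arrays was left out, with adjusted p from 0.054 to 0.17, and the sign of the V5 difference turned under spike-in scaling (0.15).

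Wt1, a zinc finger regulator that maintains Sertoli cell identity, moved least. Its level was 4.88 and 4.77 in input, 4.77 and 4.71 with IgG, 4.47 and 4.28 with V5, and 3.69 and 3.73 with GFP. The V5 arrays lay below the IgG arrays, but the log2 difference of -0.12 (SE 0.062) did not pass the test (adjusted p = 0.15), with a 95% interval from -0.26 to 0.033. With GFP, Wt1 was 1.28-fold lower (-0.35, SE 0.062, adjusted p = 0.0023), although under spike-in scaling this value was 0.12 and that with V5 was 0.25.

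Gata1, a zinc finger factor of Sertoli cells that is also the main regulator of red blood cell development, was among the 3 lowest with either antibody. Its level was 3.03 and 3.12 in input, 2.13 and 2.60 with IgG, 1.59 and 1.65 with V5, and 1.31 and 1.35 with GFP. No group overlapped another, and the IgG arrays differed from each other more than those of any other group. Gata1 was 1.45-fold lower in V5 than in IgG (-0.53, SE 0.10, adjusted p = 0.0071) and 1.77-fold lower in GFP (-0.82, SE 0.10, adjusted p = 0.00066). Because Gata1 also acts in red blood cell development, 8 erythroid genes were read beside it. Of the 6 measured, 4 were lower with V5 and 6 with GFP, where 40.4% and 52.1% of all genes were lower. Their medians were -0.50 and -0.69 (-0.13 and -0.22 under spike-in scaling, with 0 and 1 lower). In IgG against input, where Gata1 was lower (-0.39), 2 of the 6 were lower and 3 higher. Their median there was 0.50 (-0.29 under spike-in scaling). The level summed over the 6 probes was 56.4 and 57.5 in input, 41.5 to 45.1 with IgG, 33.3 to 36.4 with V5 and 29.4 to 30.6 with GFP. This sum follows its 2 brightest probes, those of the globin genes Hbb-b1 and Hba-a1, named after their values were seen. They are the 2 genes lower in IgG than in input (-0.52 and -0.25), so the sum does not describe the list as a whole. The part of erythroid RNA in the Gata1 value was not tested.

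Rhox5, an X-linked homeobox gene that androgen induces in Sertoli cells, differed most between input and the precipitates. Its level was 32.1 and 32.9 in input, 11.2 and 12.8 with IgG, 9.62 and 9.20 with V5, and 7.65 and 7.29 with GFP. The widest step lay between input and the mock. Against IgG, Rhox5 was 1.27-fold lower with V5 (-0.35, SE 0.084, adjusted p = 0.014) and 1.60-fold lower with GFP (-0.68, SE 0.084, adjusted p = 0.00064). Without V5 replicate 2 the first call was lost (-0.32, adjusted p = 0.070), and under spike-in scaling it was 0.017.

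The secreted signals of the Sertoli cell were highest in the mock precipitate, as Espn also was. Amh, the hormone that makes the Mullerian ducts regress and that declines as Sertoli cells mature, gave 0.494 and 0.50 in input, 0.822 and 0.817 with IgG, 0.641 and 0.523 with V5, and 0.432 and 0.470 with GFP. The V5 arrays differed from each other by 0.292 log2, the widest gap between replicates among the markers. Amh was 1.42-fold lower in V5 than in IgG (-0.50, SE 0.11, adjusted p = 0.0095) and 1.82-fold lower in GFP (-0.86, SE 0.11, adjusted p = 0.00064), the lowest value of the 10 with GFP.

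Inhbb, which encodes the beta B subunit of inhibin and activin, gave 16.8 and 16.9 in input, 26.5 and 27.7 with IgG, 21.6 and 21.2 with V5, and 17.0 and 17.6 with GFP. The GFP arrays lay just above the input arrays, below V5 and IgG. The log2 fold change against IgG was -0.34 with V5 (SE 0.063, adjusted p = 0.0066) and -0.65 with GFP (SE 0.063, adjusted p = 0.00034), and spike-in scaling turned the V5 value to 0.023. Dhh, the hedgehog ligand that acts on Leydig and peritubular cells, gave 32.3 and 33.9 in input, 48.4 and 52.3 with IgG, 37.8 and 38.5 with V5, and 31.9 and 30.4 with GFP. It was 1.32-fold lower in V5 than in IgG (-0.40, SE 0.072, adjusted p = 0.0061) and 1.62-fold lower in GFP (-0.69, SE 0.072, adjusted p = 0.00040).

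Fshr, the receptor through which follicle-stimulating hormone acts on Sertoli cells, had the order input, IgG, V5 and GFP from high to low. It gave 0.644 and 0.655 in input, 0.346 and 0.348 with IgG, 0.255 and 0.276 with V5, and 0.221 and 0.224 with GFP, with no overlap between groups. Against IgG, Fshr was 1.31-fold lower with V5 (-0.39, SE 0.067, adjusted p = 0.0055) and 1.56-fold lower with GFP (-0.64, SE 0.067, adjusted p = 0.00041).

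Clu, a secreted chaperone that is abundant in Sertoli cells, gave 169.9 and 174.0 in input, 159.2 and 157.5 with IgG, 120.0 and 113.7 with V5, and 101.6 and 108.0 with GFP. It was 1.36-fold lower in V5 than in IgG (-0.44, SE 0.067, adjusted p = 0.0041) and 1.51-fold lower in GFP (-0.60, SE 0.067, adjusted p = 0.00050). Espn encodes espin, which bundles actin at the junctions between Sertoli cells and spermatids. Its level was 1.34 and 1.26 in input, 1.51 and 1.69 with IgG, 1.06 and 1.02 with V5, and 0.877 and 0.929 with GFP. At 1.54-fold lower in V5 than in IgG (-0.62, SE 0.084, adjusted p = 0.0030), Espn had the lowest value of the 10 with that antibody, and with GFP it was 1.77-fold lower (-0.82, SE 0.084, adjusted p = 0.00038).

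**Figure D2:**
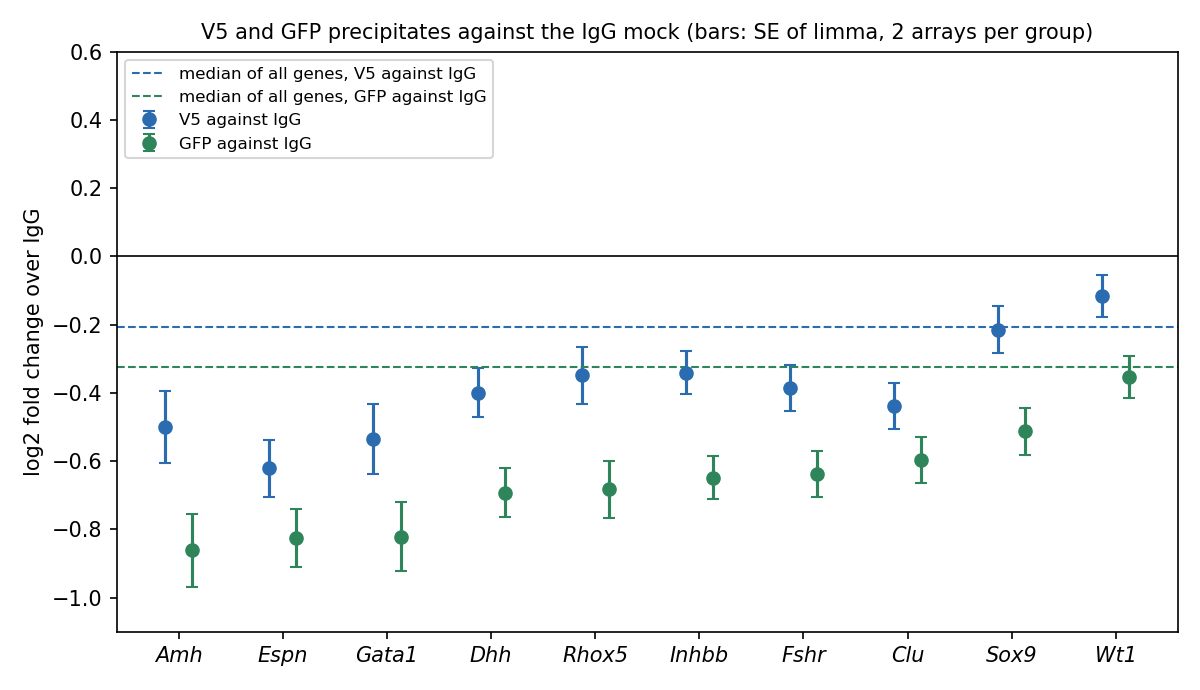
Log2 fold changes of the 10 Sertoli markers in the V5 and GFP precipitates over the IgG mock; points are limma estimates from 2 arrays per group, bars are SE, and dashed lines are the medians of all 17580 genes, -0.21 for V5 and -0.33 for GFP. All points lie below 0, from -0.62 (Espn) to -0.12 (Wt1) with V5 and from -0.86 (Amh) to -0.35 (Wt1) with GFP, and only Wt1 with V5 lies above its dashed line; under spike-in scaling 6 of 10 lie below 0 with V5 and 9 of 10 with GFP.

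The values over IgG differed little among the 10 genes. Their SD was 0.149 log2 with V5 and 0.155 with GFP, where all genes had an SD of 0.535 and 0.719. Such a narrow spread was not particular to them or shared by Sertoli genes at large. The peritubular myoid list had an SD of 0.068 and 0.095, the erythroid list 0.197 and 0.156, the Leydig list 0.188 and 0.303, and the wider Sertoli list 0.37 and 0.589. Without both arrays whose descriptions conflict with their titles, Amh was the 1 marker called lower in V5 than in IgG (-0.65, adjusted p = 0.048), and the 10 values ran from -0.65 to -0.15. That fit has 1 V5 and 1 input array, and these are assumed to vary as the IgG and GFP arrays do. It called 592 of all genes lower and 657 higher. With normexp background correction, 0 of the 10 markers and 0 of all genes were called in V5 against IgG (limma, smallest adjusted p = 0.153), 4 markers and 3688 genes had an unadjusted p under 0.05, and the 10 values lay between -0.59 and -0.18. In GFP against IgG the normexp fit called Espn and Gata1 lower, with 8 markers at an unadjusted p under 0.05. Of all 17580 genes it called 1719 lower and 1500 higher there, with 6293 at an unadjusted p under 0.05.

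The mock precipitate did not carry the Sertoli markers in the proportions of the input, and the same held for genes at large. Of the 10, Rhox5, Fshr and Gata1 were lower in IgG than in input, Amh, Inhbb, Dhh and Espn were higher, and Clu, Wt1 and Sox9 did not pass the test. Over all genes 29.3% were lower and 43.9% higher in this comparison, which lies within slide 1. The shares of the markers, 30% lower and 40% higher, were close to these, so the split was not particular to them. The markers' median was -0.02 and that of all genes 0.22. Their SD was 0.705 log2, against 0.982 for all genes, so the 10 differed among themselves far more in IgG against input than in V5 or GFP against IgG.

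Rhox5 was 2.72-fold lower in IgG than in input (-1.44, SE 0.084, adjusted p = 1.8e-05), Fshr 1.87-fold lower (-0.91, SE 0.067, adjusted p = 3.8e-05) and Gata1 1.31-fold lower (-0.39, SE 0.10, adjusted p = 0.012). At the other end Amh had a log2 fold change of 0.72 (SE 0.11, adjusted p = 0.00084), Inhbb of 0.69 (SE 0.063, adjusted p = 9.3e-05), Dhh of 0.60 (SE 0.072, adjusted p = 0.00030) and Espn of 0.30 (SE 0.084, adjusted p = 0.016). Clu (-0.12), Wt1 (-0.03) and Sox9 (-0.02) had 95% intervals from -0.28 to 0.044, from -0.18 to 0.12 and from -0.19 to 0.14. The Gata1 call was lost without input replicate 2 (-0.37, adjusted p = 0.061) and the Espn call without input replicate 2 (0.25, adjusted p = 0.094) or IgG replicate 2 (0.21, adjusted p = 0.059).

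Spike-in scaling moved all genes down in IgG against input, to a median of -0.57 with 10917 lower and 2411 higher calls in place of 5158 and 7720. There 7 markers were lower and 0 higher (with 0 higher at an unadjusted p under 0.05 as well), and Amh (-0.07), Inhbb (-0.10), Dhh (-0.18) and Espn (-0.49) turned sign. Their order was unchanged by construction, and Rhox5, Fshr and Gata1 stayed lower. Quantile normalization added Clu, Wt1 and Sox9 to the lower markers, 6 in all, with 4 higher. Of all genes it called 5509 lower and 7752 higher. Normexp left 1 marker lower (Rhox5) and 1 higher (Amh), with 2413 of all genes lower and 3859 higher.

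**Figure D3:**
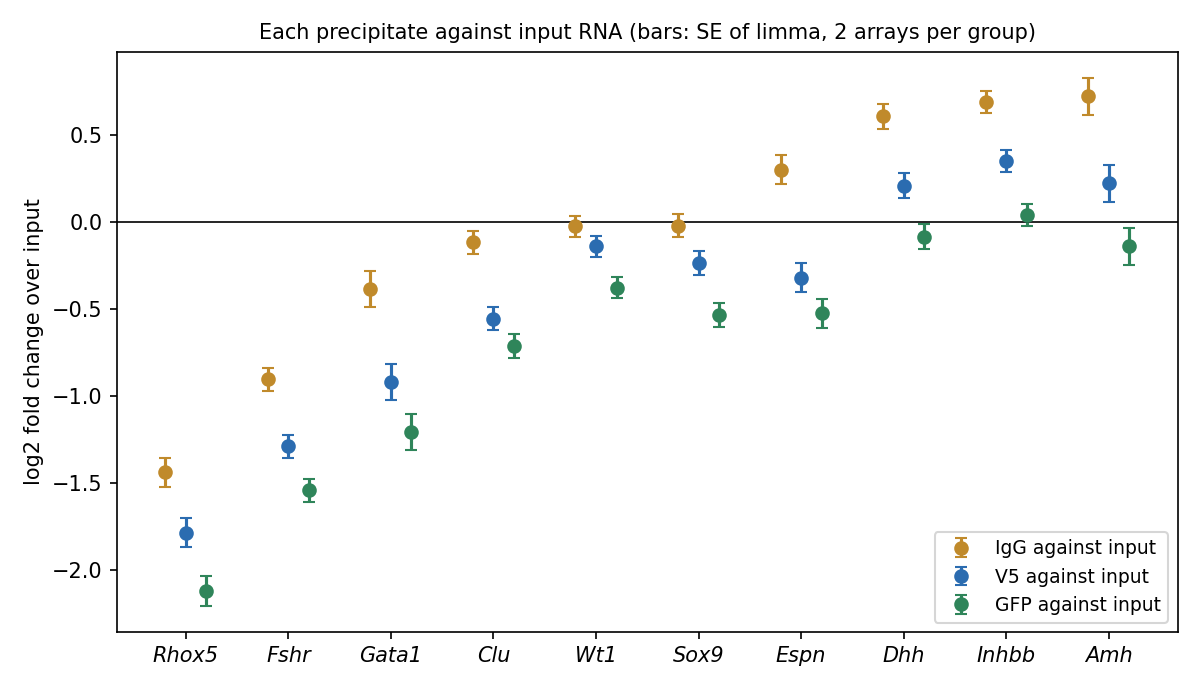
Log2 fold changes of the 10 Sertoli markers in the IgG, V5 and GFP precipitates over input; points are limma estimates from 2 arrays per group and bars are SE. For every gene IgG is highest and GFP lowest, and the genes spread from Rhox5 (-1.44 in IgG, -2.12 in GFP) to Amh (0.72 in IgG, -0.14 in GFP).

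Against input, 6 markers were lower in V5, 2 were higher and 2 did not pass, with a median of -0.28 beside 0.01 for all genes, of which 35.6% were lower and 37.7% higher. In GFP, 7 were lower, 0 were higher (also 0 at an unadjusted p under 0.05) and 3 did not pass, with a median of -0.53 beside -0.06 for all genes, of which 39.1% were lower and 36.2% higher. Both comparisons share the input arrays with that of IgG. Rhox5 was 3.46-fold lower in V5 and 4.36-fold lower in GFP than in input, Fshr 2.45-fold and 2.92-fold, Gata1 1.90-fold and 2.31-fold, and Clu 1.47-fold and 1.64-fold (limma, adjusted p from 6.1e-06 to 0.00038). Sox9 and Espn were lower by less, with log2 fold changes of -0.24 and -0.32 in V5 and -0.54 and -0.53 in GFP, and Wt1 was lower in GFP (-0.38) but did not pass in V5 (-0.14, adjusted p = 0.077). The V5 calls of Sox9 and Espn were lost when 1 array was left out: Sox9 without input replicate 1, input replicate 2 or V5 replicate 2 (adjusted p from 0.063 to 0.11), and Espn without input replicate 1 (adjusted p = 0.075) or V5 replicate 2 (adjusted p = 0.064).

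The 3 secreted signals gave the highest values of the 10 against input. Inhbb (0.35, adjusted p = 0.0025) and Dhh (0.21, adjusted p = 0.038) were higher in V5 than in input, and Amh had a value of 0.22 (adjusted p = 0.10, 95% interval from -0.035 to 0.48). In GFP, Inhbb (0.04), Dhh (-0.09) and Amh (-0.14) did not pass, with 95% intervals from -0.11 to 0.19, from -0.26 to 0.085 and from -0.40 to 0.11. Inhbb and Dhh were thus higher in V5 than in input and lower in V5 than in IgG. The Dhh call was lost without either input, either V5 or either GFP array, with adjusted p from 0.061 to 0.18, and with the block for replicate number 1 marker was higher. Spike-in scaling gave -0.08 for Inhbb and -0.22 for Dhh in V5, -0.28 for Inhbb in GFP, 0 markers higher in V5, and a split of 9628 lower and 3520 higher calls in V5 and 9213 and 4163 in GFP, where the 75th percentile gave 6251 and 6620, and 6873 and 6356.

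Between the 2 antibodies, which lie on slide 2, every marker was higher in V5 than in GFP, with log2 differences from 0.16 (Clu) to 0.36 (Amh). Both V5 arrays lay above both GFP arrays for all 10, as they did for 45.4% of all genes. Rhox5 (0.33, adjusted p = 0.047), Sox9 (0.30, adjusted p = 0.041), Inhbb (0.31, adjusted p = 0.035) and Dhh (0.29, adjusted p = 0.046) passed the test, and 0 were lower. Over all genes 6.8% were higher and 7.19% lower, with a median of 0.09. The number of markers called depended on the fit: 0 were called without either input array, either V5 array or either GFP array, 7 without either IgG array, and 0 when only the V5 and GFP arrays were fitted (limma, smallest adjusted p among the markers 0.060), where 9 had an unadjusted p under 0.05. Over all genes that 2-group fit called 0 lower and 2 higher, in place of 1264 and 1195; the split was 1921 and 227 under spike-in scaling and 1348 and 770 when arrays were centred on the median of the genes tested.

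The 3 genes with more than 1 probe show how far the choice of probe mattered. Both probes of Espn were lower than IgG with either antibody (-0.62 and -0.50 with V5, -0.82 and -0.65 with GFP) and higher in IgG than in input (0.30 and 0.41). They disagreed in V5 against input, where A_52_P469345 gave -0.32 (adjusted p = 0.014) and A_51_P451799 gave -0.08 (adjusted p = 0.41). The array lists them for transcript variants 1 and 6 of Espn. For Inhbb, the dimmer A_52_P152847 was also lower than IgG (-0.50 with V5 and -0.87 with GFP) and higher in IgG than in input (0.74), but in V5 against input its 0.24 did not pass (adjusted p = 0.13).

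The Sox9 probes differed against input. A_52_P577484, the brightest probe, had -0.02 in IgG against input, whereas A_52_P214630, printed in 10 spots, had 0.25 (SE 0.072, adjusted p = 0.017). Against IgG these probes gave -0.21 and -0.26 with V5, and -0.51 and -0.50 with GFP, all lower. In V5 against input A_52_P577484 gave -0.24 (adjusted p = 0.021) and A_52_P214630 gave -0.005 (adjusted p = 0.96). The dim A_51_P451606 was not called in any of the 6 comparisons, with an SE of 0.29. Probes printed in 10 spots show the measurement error within an array: the coefficient of variation between spots was 2.33% to 5.54% for A_52_P214630, 2.12% to 3.85% for the Gata1 probe and 3.12% to 5.25% for the Wt1 probe.

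**Figure D4:**
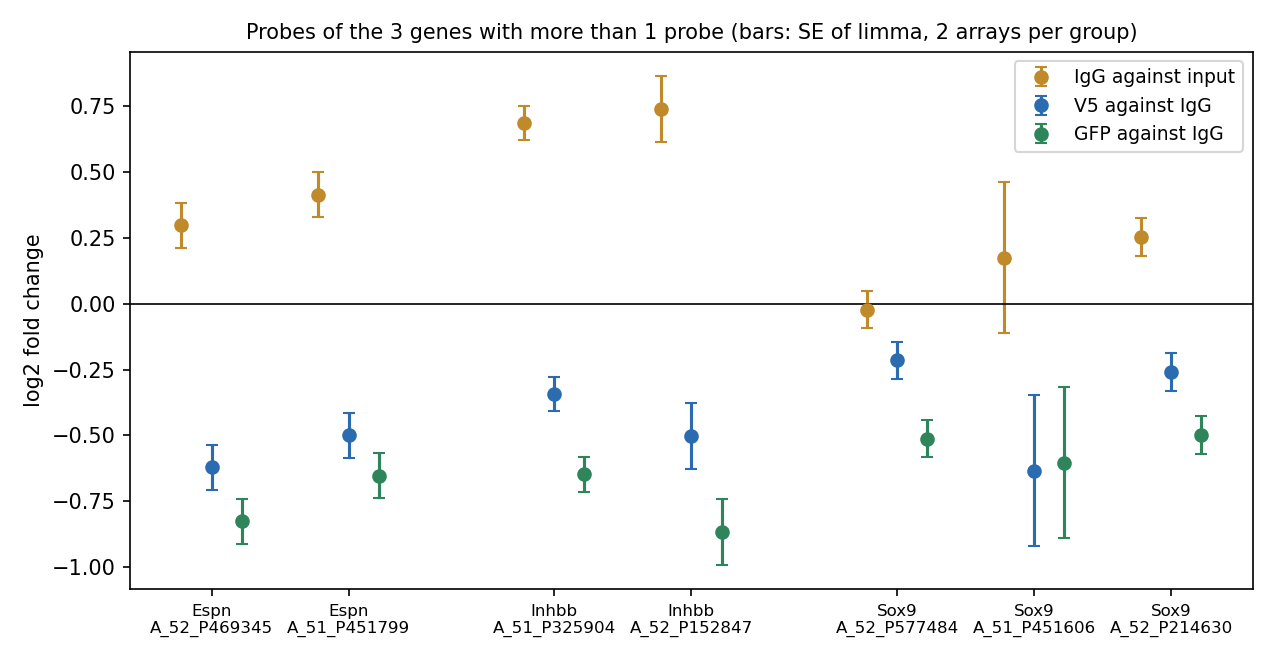
Log2 fold changes of the 7 probes of Espn, Inhbb and Sox9 in IgG against input, V5 against IgG and GFP against IgG; points are limma estimates from 2 arrays per group and bars are SE. Every probe lies below 0 in V5 and in GFP against IgG, the Sox9 probes lie between -0.02 and 0.25 in IgG against input, and the dim A_51_P451606 has the widest bars.

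The wider set of Sertoli genes, none of them among the 10, was more mixed. Of 43 measured, 23 (53.5%) were lower in V5 than in IgG, 2 were higher and 18 did not pass; with GFP 31 (72.1%) were lower, 3 were higher and 9 did not pass. The medians were -0.32 with V5 and -0.49 with GFP (0.045 and -0.015 under spike-in scaling, with 0 and 12 genes lower and 8 higher with each), and 28 of the 43 lay below the median of all genes with each. By role, 9 of 15 secreted and transport genes, 7 of 10 genes of hormone response and other functions, 5 of 11 junction and cytoskeleton genes and 2 of 7 transcription factors were lower with V5, or 60%, 70%, 45.5% and 28.6%, where 40.4% of all genes were lower. With GFP these counts were 12, 8, 7 and 4, or 80%, 80%, 63.6% and 57.1%, where 52.1% of all genes were lower.

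Among those lowest with V5 were Slc7a4, a gene related to amino acid transporters (-0.60), Nr5a1, the nuclear receptor of steroid-producing and Sertoli cells (-0.56), Ldhb, a lactate dehydrogenase subunit (-0.55), the beta tubulin Tubb3 (-0.52), the tight junction protein Cldn3 (-0.51) and the dopamine receptor Drd4 (-0.50). With GFP they were Slc7a4 (-1.15), Ldhb (-0.996), the adhesion protein Pvrl2 (-0.91), Drd4 (-0.87), the iron carrier transferrin, Trf (-0.85), and Tubb3 (-0.84). Adjusted p-values of these genes were from 0.0026 to 0.0065 with V5 and from 0.00013 to 0.00052 with GFP.

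Dmrt1 went the other way. This transcription factor is made in both Sertoli cells and germ cells. Its level was 1.29 and 1.26 in input, 0.761 and 0.708 with IgG, 2.14 and 2.41 with V5, and 3.93 and 3.86 with GFP. It was 3.1-fold higher in V5 than in IgG (1.63, SE 0.081, adjusted p = 0.00072) and 5.30-fold higher in GFP (2.41, SE 0.081, adjusted p = 7.4e-05). Fst, which encodes the activin-binding protein follistatin, was also higher, with 0.33 with V5 (adjusted p = 0.011) and 0.83 with GFP (adjusted p = 0.00026), from levels of 0.137 and 0.140 with IgG. Inhba, the beta A subunit of inhibin and activin, was higher with GFP (0.25, adjusted p = 0.041) and had a value of -0.24 with V5 that did not pass (adjusted p = 0.059).

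Markers of other somatic cells of the testis were also mostly lower than in IgG. All 8 peritubular myoid genes were lower with V5 (-0.59 to -0.41) and with GFP (-0.92 to -0.65), and 6 of 8 measured Leydig genes were lower with each antibody, with medians of -0.33 and -0.55. Over all genes, 40.4% were lower with V5 and 52.1% with GFP. Under spike-in scaling 0 of these 16 genes were lower and 1 was higher with V5, 6 myoid and 1 Leydig gene were lower and 2 genes higher with GFP, and the Leydig median with V5 turned to 0.035, while the myoid medians were -0.13 and -0.35. Of 11 germ cell genes, 6 were higher and 1 lower with V5, and 7 were higher and 1 lower with GFP, where 16.7% and 21.6% of all genes were higher. Under spike-in scaling 9 of the 11 were higher and 0 lower with each antibody. Of all 17580 genes, 6250 were then higher and 914 lower with V5, and 6844 higher and 2202 lower with GFP. Dazl itself, which the fusion also encodes, had a log2 fold change of 0.98 with V5 and 1.49 with GFP, the meiotic gene Sycp3 of 1.45 and 1.66, the receptor Kit of 1.21 and 1.79, and the RNA helicase gene Ddx4 of 0.46 and 0.45 (limma, adjusted p from 7.4e-05 to 0.042). The germ cell gene that was lower was Tex101 (-0.39 and -0.57), named after its values were seen. Against input, 7 of the 11 were lower and 2 higher with V5, and 6 were lower and 2 higher with GFP. Over all genes, 35.6% and 39.1% were lower. Sycp3 had -3.48 and -3.27, Ddx4 -1.15 and -1.16 and Dazl -1.09 and -0.58, whereas Kit had 1.38 and 1.96. In IgG against input 8 of the 11 were lower and 2 higher, with Sycp3 at -4.93, Dazl at -2.08, Ddx4 at -1.61 and Kit at 0.17.

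**Figure D5:**
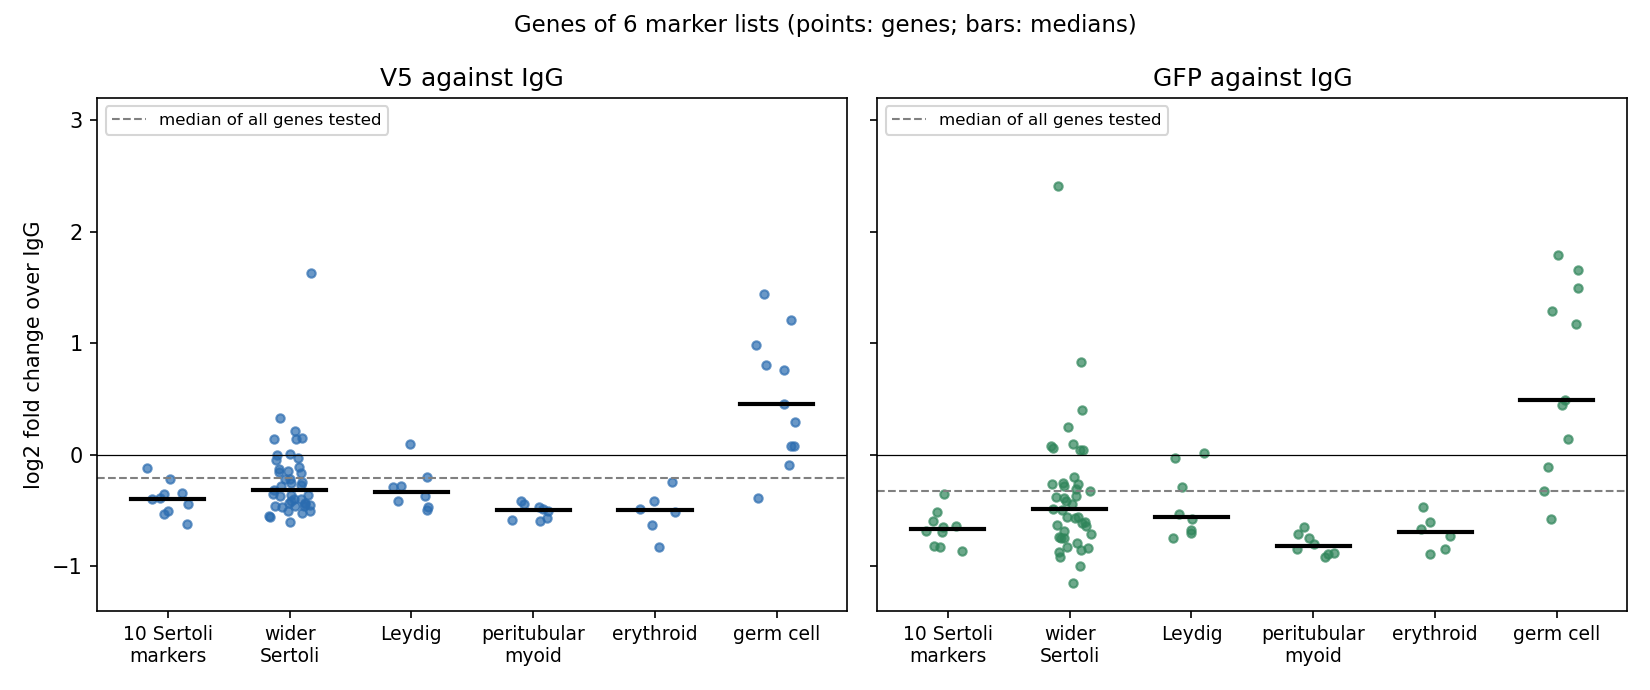
Log2 fold changes over IgG in the V5 and GFP precipitates for the genes of 6 marker lists; points are genes, black bars are medians of the list, and the dashed line is the median of all genes tested. The Sertoli marker, wider Sertoli, Leydig, peritubular myoid and erythroid medians lie below the dashed line, the germ cell median lies above 0 (0.46 with V5 and 0.49 with GFP), and the point of the wider Sertoli list highest above the rest is Dmrt1 (1.63 and 2.41).

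The mean profile of the 10 markers over the 8 arrays was compared with genes outside all the marker lists. Names that are accessions or clones were left out, so other somatic marker genes could not appear. The genes most like it were Vps28, Lig1, Ift122, Trpc4ap and Cox6a1. Their root mean square distance from the mean profile, on centred log2 values, was 0.022 to 0.031 among 12339 genes compared. Distances of the markers themselves ran from 0.055 (Clu) and 0.099 (Sox9) to 0.37 (Fshr) and 0.60 (Rhox5), and 3316 genes lay closer to the mean profile than the median marker did.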

How the data were processed

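RNA of 8 samples was hybridised to one-colour Agilent arrays. Per the file headers, the deposited intensity values come from version 9.1.3.1 of Agilent Feature Extraction, which subtracted background and did not scale arrays to one another. The authors' deposited table holds signal values, as group means for input, V5 and GFP, and served only as an alternative; its 6 other value columns were not used.

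Processed signals were taken as log2 minus the 75th percentile over an array's 43379 non-control spots. Spots of a probe were averaged without outliers. Of 41174 probes, 25597 were kept because the 2 arrays of some group both had them well above background, and the brightest probe stood for each of 17580 genes (5939 had more than 1). Group means were fitted with limma 3.58.1 in R 4.3.3 (lmFit and eBayes, two-sided, 4 residual and 2.41 prior degrees of freedom) for 6 comparisons, with Benjamini-Hochberg adjustment at 0.05, after a test on simulated data. In the text on probes, adjusted p-values come from a fit of all kept probes.

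The text names all 10 markers, the up to 6 lowest and 4 highest called genes of the wider Sertoli list per antibody against IgG, 4 germ cell genes, and the 5 nearest profiles. The markers and all lists were chosen with earlier results of these data known. Of the wider list, Esr2 and Fgf2 were not above background and Rhox8 was not matched; nor was Zbtb16 of the germ cell list. Alternatives changed the background correction, scaling, filter, probe, arrays fitted, replicate block and single arrays. Array files name no genome build, so no coordinates are given.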

Additional observations from a re-analysis of the deposited data

How the results depend on the processing

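Directions of the 10 markers against IgG held under every alternative except spike-in scaling; calls did not. The number lower in V5 against IgG, 9, was 0 with normexp (limma; 4 at an unadjusted p under 0.05), 1 with spike-in scaling (which also made 1 higher) and 1 without both arrays of conflicting descriptions. In GFP against IgG, 10 became 2 with normexp and 3 with spike-in scaling. In IgG against input, 3 lower became 1, 6 and 7 with normexp, quantile normalization and spike-in scaling, and 4 higher became 1 with normexp and 0 with spike-in scaling. In V5 against input, 6 lower became 3 with normexp, and 2 higher became 0 with normexp, spike-in scaling or without both conflicting arrays, and 1 without the filter on dim probes, with the lowest-signal probe, with the replicate block or with arrays centred on the median of all genes; leaving out 1 array gave 1 to 2. The 4 higher in V5 against GFP became 2 with centred arrays and 0 with normexp, spike-in scaling, no filter, the lowest-signal probe, only 2 groups or the within-slide fit, or without both conflicting arrays; leaving out 1 array gave 0 to 7.

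Among the markers and the genes named by rule, some log2 values turned sign under spike-in scaling. In V5 against IgG they included Rhox5 0.017, Inhbb 0.023, Sox9 0.15, Wt1 0.25 and Inhba 0.12, and in GFP against IgG, Wt1 0.12. In IgG against input they were Espn -0.49, Inhbb -0.10, Dhh -0.18, Amh -0.069, Slc7a4 -0.053, Nr5a1 -0.21, Tubb3 -0.54, Pvrl2 -0.20 and Kit -0.62. In V5 against input they were Inhbb -0.079, Dhh -0.22, Slc7a4 -0.29, Nr5a1 -0.40, Cldn3 -0.14 and Pvrl2 -0.23, and in GFP against input, Inhbb -0.28. With the lowest-signal probe of each gene, the markers' median in IgG against input was 0.075, Pvrl2 in V5 against input -0.25 and Sox9 in V5 against GFP -0.030. In the authors' deposited table the markers' median ratio of V5 to input was 0.040 on the log2 scale, beside 0.15 for all its entries. That of GFP to input kept its sign, at -0.19 beside 0.15. The cause of these changes of sign was not tested.

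Over all genes, normexp left 0 calls in V5 against IgG and in V5 against GFP (3688 and 800 genes at an unadjusted p under 0.05), 1719 lower and 1500 higher in GFP against IgG, 2413 and 3859 in IgG against input, 2282 and 2968 in V5 against input and 2506 and 3191 in GFP against input. With every probe tested, 4554 were higher in V5 and 6038 in GFP against IgG, and 8452 and 9619 were lower in IgG and V5 against input. Without V5 replicate 1, 4108 were lower and 1927 higher in V5 against IgG, and without V5 replicate 2, 4378 were lower. In V5 against GFP, leaving out 1 array gave from 1 lower and 2 higher to 2089 and 2907, no filter gave 2 and 2, the within-slide fit 0 and 2, the fit without both conflicting arrays 1 and 3, and subtraction of local background, chosen like the centring after seeing the data, 1938 and 1840.

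Replicate numbers did not pair the samples: correlations of the deviations of same-numbered arrays lay between -0.0753 and 0.107. With the replicate number as a block, V5 against GFP had 0 markers called (8 at an unadjusted p under 0.05) and 543 lower and 251 higher genes, V5 against input had 1 marker higher, and the other counts of markers were the same.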

Other observations

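Sertoli genes outside the 10 also split between input and the IgG mock, 17 lower and 17 higher of 43 measured (39.5% each, where 29.3% of all genes were lower and 43.9% higher); under spike-in scaling 34 were lower and 2 higher. The genes below were named after their values were seen. Among secreted and transport genes 9 of 15 were higher in IgG than in input, among them Inha, the alpha subunit of inhibin (0.68), Cyp26b1, which breaks down retinoic acid (0.89), and Gdnf, a growth factor for spermatogonial stem cells (0.44). Kitl, the ligand of the Kit receptor (-2.17), and Inhba (-2.20) were lower. Of 11 junction and cytoskeleton genes 6 were lower, among them Tjp1 (-1.33), the intermediate filament gene Vim (-1.19) and the gap junction gene Gja1 (-0.78), while the claudins Cldn11 (0.85) and Cldn3 (0.79) were higher. Tsx had the lowest value of the list (-3.33) and Drd4 the highest (1.46). Adjusted p-values of these genes from limma ran from 8.6e-06 to 0.0013. Under spike-in scaling the median of all genes in this comparison moved from 0.22 to -0.57, Inha turned to -0.11 (adjusted p = 0.31) and Gdnf to -0.35 (adjusted p = 0.0027), and Cyp26b1, Cldn11 and Cldn3 no longer passed, with log2 fold changes of 0.098, 0.063 and 0.00042. Drd4 was still higher, by 0.67.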
